A study of Mus musculus with 7 samples.

Results

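The genes described here are 33 genes of cholesterol and fatty acid synthesis, out of 27998 genes in the files. They were chosen by name from textbook pathways, not by their values, and all 33 were found. They fall into 4 arms: 7 genes of the mevalonate arm, 11 genes of the steps from squalene to cholesterol, 5 regulators and carriers, and 10 genes of fatty acid synthesis, desaturation and elongation. Scd1, a stearoyl-CoA desaturase, had 15 UMIs in all libraries together and Fads2, a fatty acid desaturase, had 4. Neither could be tested, which left 31 genes for most comparisons.

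Gene expression was read from single spleen T cells of C57BL/6 mice given lymphocytic choriomeningitis virus (LCMV) Armstrong, by droplet sequencing of transcript 3' ends. The values are unique molecular identifiers (UMIs), each standing for 1 captured transcript. Activated wild type cells with high CD44, in which CD4+ and CD8+ cells had been sorted apart and mixed in equal parts, gave 2 libraries at day 7 (total CD44high replicates 1 and 2). The other 5 libraries held CD44high cells that bound the tetramer GP66:I-Ab, a class II molecule carrying a viral peptide, and are called GP66+. One was a wild type library of CD4+ cells at day 7. For the other 4, the mice carried Ox40-Cre, a recombinase driven from the promoter of an activation-induced receptor, together with a RosaYFP reporter, and YFP+ cells were sorted without a stated CD4 gate. Their Thpok alleles were wt/wt (Thpok-sufficient) or fl/fl (Thpok-deleted), with 1 library of each at day 7 and 1 of each at day 30. Thpok, encoded by Zbtb7b, is a transcription factor that keeps helper T cells in the CD4 lineage. How many animals gave each library is not stated, so p-values reflect only how far these libraries vary, and some of that variation may be technical.

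The mevalonate arm turns acetyl units into isoprenoid building blocks, and the squalene arm joins and reshapes them into cholesterol. Both arms, and much of fatty acid synthesis, are switched on by the SREBP transcription factors (Srebf1, Srebf2). When sterols are low, the escort protein Scap carries SREBP out of the endoplasmic reticulum for cleavage, and when sterols are high, Insig1 holds the complex back. Insig1 is itself a target of SREBP, and activated T cells are known to need both pathways to build membranes for division.

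Promoters were available for 26 of the 33 genes in RefSeq on GRCm38.p6, as 33 promoters since some genes have more than 1. The 250 bases before the start were searched on both strands for 5 sequences: the CCAAT box (CCAAT or ATTGG) bound by NF-Y, the E-box CACGTG, the sterol element core TCACNCCAC (or GTGGNGTGA), the full sterol element of 10 letters, which contains the core, and the GC box GGGCGG (or CCGCCC) bound by Sp1. The CCAAT box was present in 21 of 33 promoters (63.6%), against 33.8% of the 32851 promoters in the table. The GC box was present in 24 of 33 (72.7%, against 32.7%) and the E-box in 6 of 33 (18.2%, against 6.02%). The sterol element core was found only in Hmgcs1 (3.03%, against 1.05%), and the full sterol element in 0 of 33 (against 0.0731%). No CCAAT box, E-box or core overlapped a match of another of these kinds, and 1 such match overlapped a GC box. The promoters below are those of the first-ranked gene by fold change in the comparisons of lineage (Elovl6), antigen specificity (Insig1), genotype (Tm7sf2), day (Pmvk, with 2 promoters) and cycling (Idi1), and that of Hmgcs1 for its sterol element core. CCAAT boxes, E-boxes and the core are in capitals.
Elovl6, chr3:129532136-129532385 on the plus strand: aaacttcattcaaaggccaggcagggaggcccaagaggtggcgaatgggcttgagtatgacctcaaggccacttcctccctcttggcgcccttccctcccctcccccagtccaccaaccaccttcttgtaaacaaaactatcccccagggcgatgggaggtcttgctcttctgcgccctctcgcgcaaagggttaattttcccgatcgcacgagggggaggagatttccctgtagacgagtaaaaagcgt
Insig1, chr5:28071162-28071411 on the plus strand: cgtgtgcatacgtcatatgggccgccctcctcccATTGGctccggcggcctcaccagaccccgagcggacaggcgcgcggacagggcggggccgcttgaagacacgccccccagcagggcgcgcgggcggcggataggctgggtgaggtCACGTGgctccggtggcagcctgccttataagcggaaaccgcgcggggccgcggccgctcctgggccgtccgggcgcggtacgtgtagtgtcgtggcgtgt
Tm7sf2, chr19:6067851-6068100 on the minus strand: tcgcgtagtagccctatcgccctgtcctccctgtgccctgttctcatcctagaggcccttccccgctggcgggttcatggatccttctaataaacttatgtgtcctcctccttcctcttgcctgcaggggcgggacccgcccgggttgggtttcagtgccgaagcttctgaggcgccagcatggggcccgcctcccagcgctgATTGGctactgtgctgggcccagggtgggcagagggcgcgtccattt
Pmvk, chr3:89454291-89454540 on the plus strand: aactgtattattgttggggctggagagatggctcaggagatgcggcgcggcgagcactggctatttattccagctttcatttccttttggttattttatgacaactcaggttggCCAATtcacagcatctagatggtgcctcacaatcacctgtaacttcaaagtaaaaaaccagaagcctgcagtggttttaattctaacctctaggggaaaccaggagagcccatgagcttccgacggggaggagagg
Pmvk, chr3:89459321-89459570 on the plus strand: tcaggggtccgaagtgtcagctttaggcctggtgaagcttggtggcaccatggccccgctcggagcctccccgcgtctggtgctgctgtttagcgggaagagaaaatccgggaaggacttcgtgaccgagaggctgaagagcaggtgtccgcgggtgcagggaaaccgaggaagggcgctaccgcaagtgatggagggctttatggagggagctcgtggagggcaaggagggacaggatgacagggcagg
Idi1, chr13:8885356-8885605 on the plus strand: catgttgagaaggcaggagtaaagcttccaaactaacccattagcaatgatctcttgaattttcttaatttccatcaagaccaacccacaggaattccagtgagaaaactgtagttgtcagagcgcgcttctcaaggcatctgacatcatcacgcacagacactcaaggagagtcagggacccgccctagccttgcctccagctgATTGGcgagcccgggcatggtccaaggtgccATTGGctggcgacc
Hmgcs1, chr13:119690101-119690350 on the plus strand: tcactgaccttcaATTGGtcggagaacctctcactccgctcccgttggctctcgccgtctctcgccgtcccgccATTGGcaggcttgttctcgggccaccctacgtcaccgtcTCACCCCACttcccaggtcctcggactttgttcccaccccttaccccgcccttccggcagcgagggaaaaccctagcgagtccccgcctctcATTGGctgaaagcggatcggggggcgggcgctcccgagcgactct
Hmgcs1 held 3 CCAAT boxes and the core, Insig1 held 1 CCAAT box and 1 E-box, Idi1 held 2 CCAAT boxes, and Tm7sf2 and the first promoter of Pmvk held 1 each. Elovl6 and the second promoter of Pmvk held no match. These matches describe letters in the window and say nothing of binding.

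After filtering, 16114 cells remained, between 725 and 6845 per library. The cells of a library summed to between 1551772 and 32985497 UMIs, and the median cell held 2017 and 2440 UMIs in the day 30 libraries against 4025 to 5900 at day 7. Zbtb7b followed the genotype labels: the Thpok-deleted libraries held 1 UMI each, against 389 and 388 in the 2 other GP66+ libraries of day 7 and 32 in the Thpok-sufficient library of day 30. Pairs of libraries shared at most 25 cell barcodes (up to 1.13% of the smaller library). Clusters led by B or myeloid markers were left out, 219 cells in all and 192 of them in total replicate 1.

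In T cells of the 7 libraries the 33 genes together made up 698 and 869 counts per 1000000 UMIs (CPM) in total replicates 1 and 2. For the GP66+ libraries of day 7 the sum was 904 CPM (wild type), 816 CPM (Thpok-sufficient) and 766 CPM (Thpok-deleted). At day 30 it was 570 CPM (Thpok-sufficient) and 481 CPM (Thpok-deleted). The day 30 libraries were the lowest, and their 95% Poisson intervals, which cover counting error only (533 to 609 and 452 to 512), lay below those of every day 7 library. The summed level of a list of 20 cell cycle genes followed a like division, with 706 and 1320 CPM at day 30 against 2235 to 4155 CPM at day 7. Its part in the members' levels was examined only by the subsets of cells given below.

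**Figure D1:**
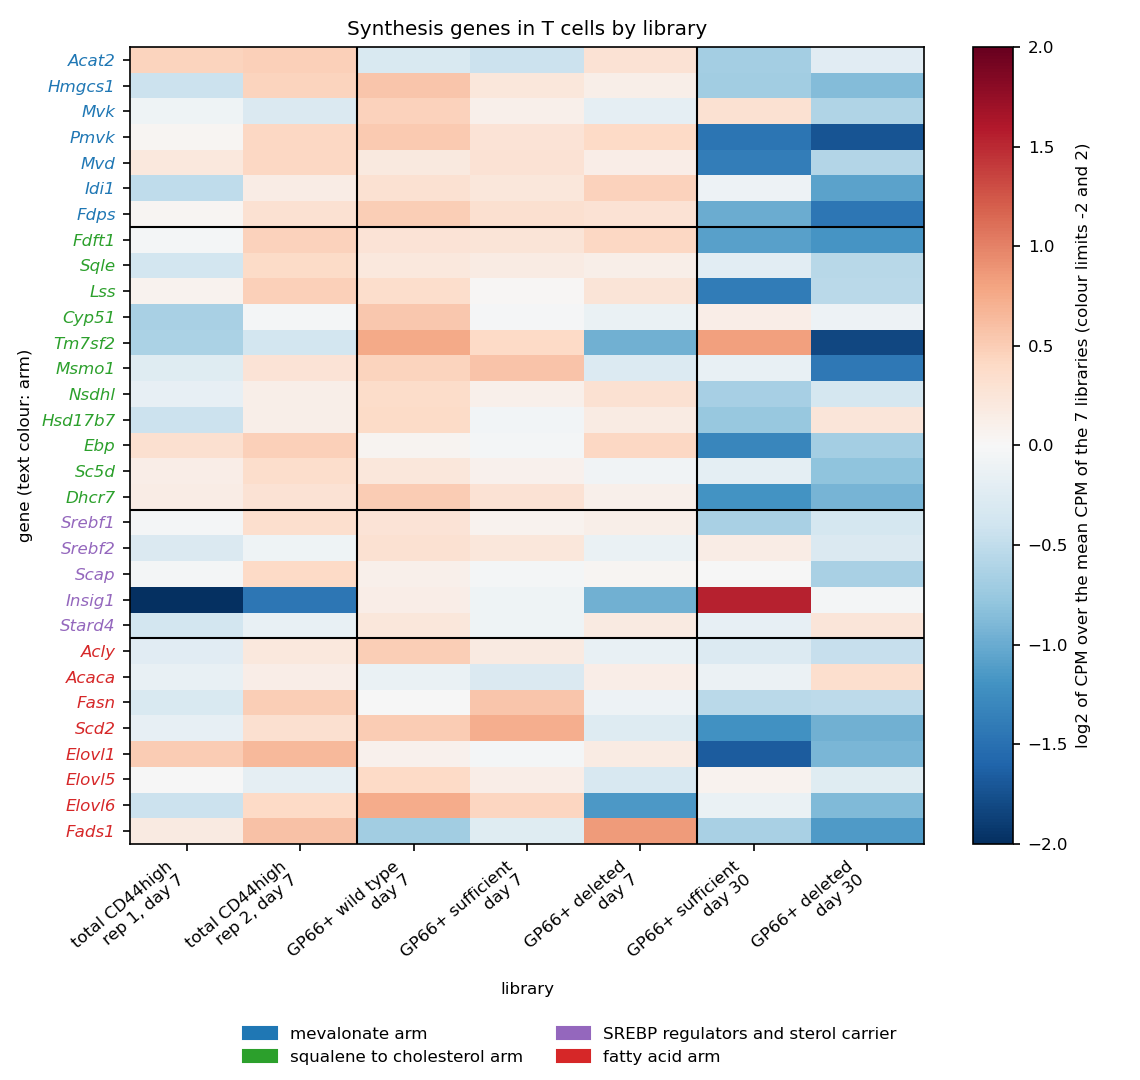
Each tile gives the log2 of a gene's CPM in the T cells of 1 library over its mean CPM in the 7 libraries, for the 31 genes with enough UMIs, with rows ordered by arm and columns by library. Insig1 runs from 6.57 CPM in total replicate 1, which lies beyond the lower colour limit, to 87.7 CPM in the Thpok-sufficient library of day 30, while most genes of the mevalonate and squalene arms are palest or blue in the 2 day 30 columns.

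The first comparison asked whether activated CD8 and CD4 T cells of the same infection differ in these genes. Cells of the total libraries with Cd4 but no Cd8a or Cd8b1 transcript were called CD4-like (1440 and 550 cells in replicates 1 and 2), and cells with the opposite pattern CD8-like (3481 and 1074). Of the 31 genes, CD4-like cells had more of 11 and CD8-like cells more of 3 (edgeR quasi-likelihood test with the library as block, adjusted p under 0.05). The fit had 1 residual degree of freedom, so its p-values lean on a spread shared over genes. The background over 10200 genes was 19.3% higher on the CD4-like and 18.7% on the CD8-like side, 38.0% in either direction. The groups did not overlap for 19 of the 31 genes, against 55.5% of all genes. The median log2 ratio of CD8-like to CD4-like levels was -0.22 for the 31 genes and -0.02 for all genes tested.

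Fatty acid synthesis held the largest differences, with 5 of its 8 tested genes higher on the CD4-like side, 1 on the CD8-like side and a median of -0.47. Elovl6, the elongase that extends palmitate to stearate (ENSMUSG00000041220, chromosome 3, 129532355 to 129638495, plus strand, GRCm38), stood at 3 and 5.06 CPM in the CD8-like and 10.3 and 14.2 CPM in the CD4-like cells of replicates 1 and 2. These and all CPM beside a fold change are scaled by the TMM factors of edgeR. Both CD4-like values lay above both CD8-like values (the same direction in both libraries was seen for 75.7% of all genes), by a log2 fold change of -1.65 ± 0.23 (SE; edgeR adjusted p = 1.2e-09). Scd2, a desaturase that makes oleate and palmitoleate (chromosome 19, 44293674 to 44306864, plus strand), gave 15 and 18.5 CPM in CD8-like and 36.3 and 46.4 CPM in CD4-like cells (log2 -1.30 ± 0.13, edgeR adjusted p = 3.8e-15). Reads of Scd2 and its close copies in the same gene family could be split or dropped in counting, so its level is less certain than its direction within a library.

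Fasn, the synthase that builds palmitate (ENSMUSG00000025153, chromosome 11, 120805846 to 120824547, minus strand), stood at 8.15 and 15.5 CPM in CD8-like and 22 and 32.8 CPM in CD4-like cells. The groups did not overlap, with a log2 fold change of -1.27 ± 0.16 (edgeR adjusted p = 2.2e-11). Replicate 2 was higher than replicate 1 in both classes. Acly, which makes cytosolic acetyl-CoA from citrate, gave 54.3 and 66.2 against 76.9 and 90.6 CPM (log2 -0.48 ± 0.09, edgeR adjusted p = 3.6e-06). Elovl5, an elongase of polyunsaturated fatty acids, gave 41.1 and 32.2 against 54.2 and 48.5 CPM (log2 -0.47 ± 0.10, edgeR adjusted p = 1.1e-04). Acaca, which makes malonyl-CoA for Fasn, was not called (log2 0.21 ± 0.24, edgeR adjusted p = 0.534). Elovl1, the elongase of saturated very long chains, was the 1 fatty acid gene higher in CD8-like cells (log2 0.36 ± 0.09, edgeR adjusted p = 6.6e-04). The 3' end of Elovl1 overlaps that of the cell cycle gene Cdc20 on the other strand by 53 bases in GENCODE vM21, and no source used here says whether counting was by strand. Of the 33 genes, 6 have another protein-coding gene over their 3' end (Mvd, Fdps, Fdft1, Cyp51, Srebf1 and Elovl1), so their counts are less certain. For Fdps that gene, Gm43738, lies on the same strand, so counting by strand would not part them. For the rest it lies on the other strand.

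Replicate 1 joined 3 capture wells, in each of which the 3 genes were higher in CD4-like cells. In wells 1, 2 and 3 Elovl6 stood at 7.81, 10 and 11.2 CPM in CD4-like and 1.62, 2.96 and 3.31 CPM in CD8-like cells, and Scd2 at 35.1, 33.5 and 37.6 against 12.7, 12.9 and 15.1 CPM. Fasn stood at 22.1, 18.4 and 23.3 against 7.39, 6.76 and 8.16 CPM. Wells of 1 library are repeat captures and were not counted as replicates.

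In the squalene arm 2 of 11 genes favoured CD4-like and 1 favoured CD8-like cells. Msmo1, a sterol methyl oxidase, stood at 18.5 and 24.5 CPM in CD8-like and 29.3 and 37.4 CPM in CD4-like cells with no overlap (log2 -0.64 ± 0.13, edgeR adjusted p = 2.5e-05). Sqle, the epoxidase that commits squalene to sterols, stood at 11.9 and 17.1 against 15.4 and 27.8 CPM, so that the groups overlapped although CD4-like cells were higher within each library (log2 -0.52 ± 0.16, edgeR adjusted p = 0.00575). Ebp, the isomerase that shifts a double bond late in the pathway (ENSMUSG00000031168, chromosome X, 8185329 to 8193512, minus strand), went the other way, with 131 and 133 CPM in CD8-like and 101 and 99.8 CPM in CD4-like cells. Its replicates lay close together and the groups apart (log2 0.39 ± 0.08, edgeR adjusted p = 3.5e-05).

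The mevalonate arm was divided, with Acat2 higher in CD8-like cells and Mvk and Fdps higher in CD4-like cells (Fdps log2 -0.28 ± 0.10, edgeR adjusted p = 0.0183). Acat2, the cytosolic thiolase at the entry of the arm, stood at 27.8 and 28.4 CPM in CD8-like and 22.1 and 20.1 CPM in CD4-like cells (log2 0.39 ± 0.14, edgeR adjusted p = 0.0163). Mvk, mevalonate kinase, stood at 6.68 and 4.42 against 9.37 and 8.96 CPM (log2 -0.64 ± 0.22, edgeR adjusted p = 0.0155). Neither gene's groups overlapped. Among the regulators, Srebf2, the SREBP of sterol synthesis, stood at 19.9 and 24 CPM in CD8-like and 30.8 and 27.5 CPM in CD4-like cells (log2 -0.46 ± 0.13, edgeR adjusted p = 0.00333). Insig1 stood at 5.95 and 9.48 against 9.67 and 11.4 CPM (log2 -0.53 ± 0.21, edgeR adjusted p = 0.0354). Both were without overlap, the groups of Insig1 by a narrow margin. Nr4a1, Junb and Fos, genes of the immediate early response, were higher in CD4-like cells as well (log2 -1.03, -0.48 and -1.46). Their edgeR adjusted p were 1.1e-05, 1.3e-07 and 6.5e-06, and their part in the level of Insig1 was not tested.

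**Figure D2:**
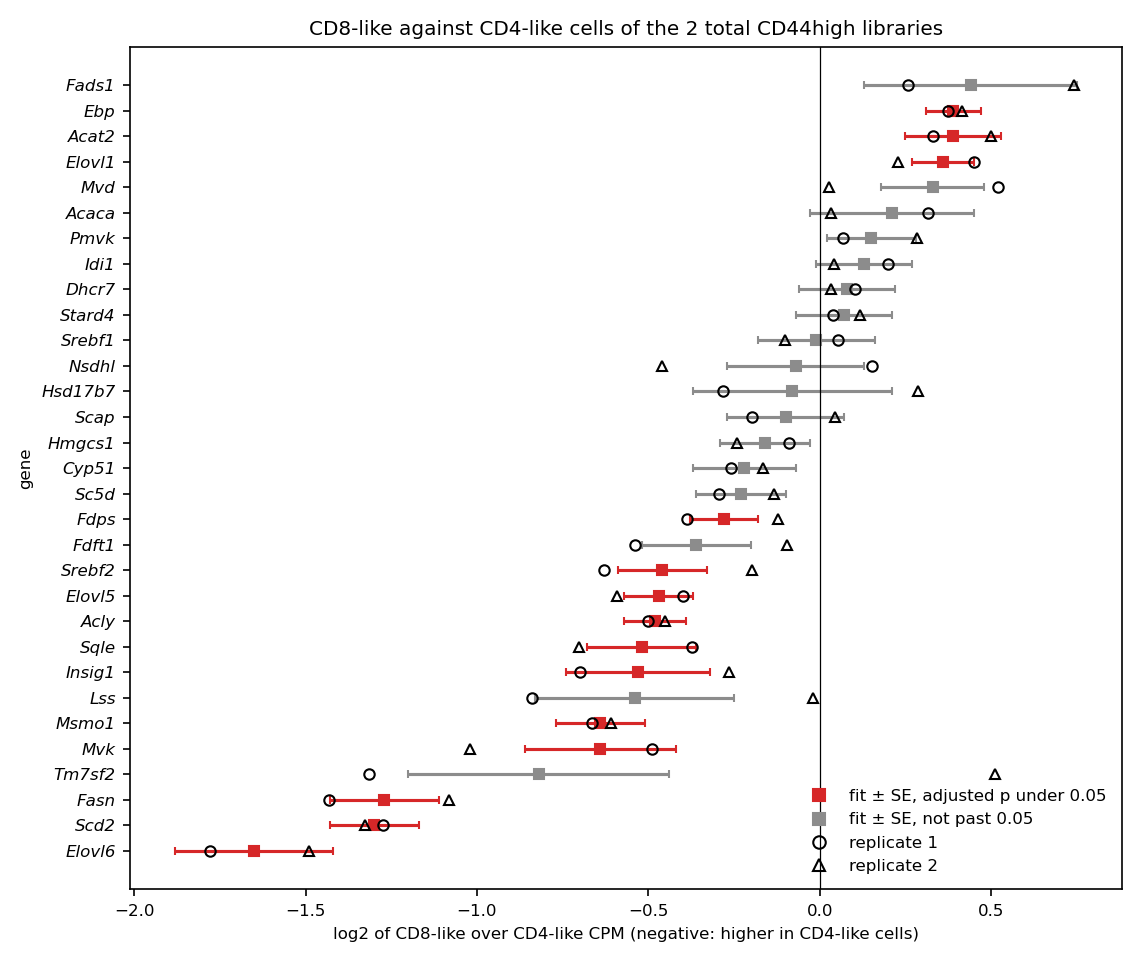
For 31 genes the horizontal axis gives the log2 of CD8-like over CD4-like CPM, with squares for the fit ± SE (red where the adjusted p is under 0.05) and open symbols for the ratio in each replicate. Elovl6, Scd2 and Fasn lie below -1 in both replicates, while Ebp, Acat2 and Elovl1 lie above 0 in both.

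These calls moved with the settings and with the cells summed. Without the library as block 0 genes were called for CD8-like and 2 for CD4-like cells, with the share of all genes not given here. DESeq2 called 1 and 4, against 750 and 628 of all 10200 genes. Stricter cells (1000 or more genes, mitochondrial share up to 5%) gave 3 and 9, with Fdps and Insig1 no longer called. Over all genes 31.5% were called there, in either direction. The cell cycle list leaned to CD8-like cells in 20 of 20 genes (median log2 0.88). With cells that held no UMI of that list, 10 of the 31 genes could be tested. Of these 0 and 2 were called (Fasn and Elovl5, both higher in CD4-like cells), against 14.1% of all genes in either direction. The median of the 10 was -0.25. Markers of other cell states differed too: 8 of 8 Tfh markers (median log2 -4.07) and 3 of 4 Treg markers were higher in CD4-like cells, and 8 of 8 cytotoxic CD8, 3 of 3 NK and 5 of 7 myeloid markers in CD8-like cells. Their part in the members' differences was not tested.

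Genes of 4 companion lists on neighbouring pathways, drawn up by function, were counted in the same comparison. The background for these counts was 18.7% of all genes on the CD8-like and 19.3% on the CD4-like side. On the list of acyl supply, elongation and isoprenoid branches, 3 of the 18 that could be tested favoured CD8-like cells and 5 favoured CD4-like cells. Acss2, which makes acetyl-CoA from acetate, was higher in CD8-like cells (log2 2.04 ± 0.14, edgeR adjusted p = 5.8e-24), and Acsl3, a long chain acyl-CoA synthetase, was higher in CD4-like cells (log2 -4.08 ± 0.57, edgeR adjusted p = 1.7e-09). Hacd3 and Slc25a1, the citrate carrier that feeds Acly, were also higher in CD4-like cells (log2 -0.72 and -0.63). On the list of fatty acid oxidation 4 of 17 favoured CD8-like cells and 3 favoured CD4-like cells, among the latter Decr1 (log2 -1.99 ± 0.15, edgeR adjusted p = 2.5e-21) and Eci1 (log2 -0.73), auxiliary enzymes for unsaturated fatty acids. On the list of sterol export, storage and trafficking 5 of 13 were higher in CD8-like cells, among them Mylip, which degrades lipoprotein receptors (log2 0.78), and Npc1 (log2 0.47), while Lipa, the lysosomal lipase, was higher in CD4-like cells (log2 -1.08 ± 0.12, edgeR adjusted p = 1.7e-13). Of 5 genes of SREBP processing and decay, Mbtps1, the protease that makes the first cut in SREBP, and Rnf139 were higher in CD4-like cells (log2 -0.76 and -0.41). The medians of these lists lay between -0.19 and 0.05.

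Cells of the total libraries were also clustered with the 33 genes left out of the clustering, and the levels below describe those clusters without a test. In cluster 6, which carried 4 cytotoxic CD8 markers among its 10 leading genes, Fasn stood at 2.79 CPM in replicate 1 and 3.24 CPM in replicate 2 and Scd2 at 6.59 and 9.72 CPM. In cluster 0, Tfh-like by 6 of its 10 leading genes (follicular helper cells, which help B cells), Scd2 stood at 69 and 65.8 CPM and Fasn at 16.3 and 27.5 CPM. Clusters 3 and 4, each central-memory-like by 2 of its 10 leading genes, held Elovl6 at 24.9 CPM (cluster 3, mostly replicate 2) and 15.2 CPM (cluster 4, mostly replicate 1) and Fasn at 54.6 and 32.6 CPM. Among the values given for these 4 clusters, Fasn was highest in cluster 3. Scd2 is given only for clusters 6 and 0 and Elovl6 only for clusters 3 and 4, so neither is ranked over the 4. The first leading gene of cluster 3 was Isg15. Clusters 10 and 12 (622 and 560 cells) were central-memory-like too and their levels are not given, so these values do not describe all such cells.

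The next comparison asked whether virus-specific helper cells differ from CD4 cells of the total response. It used CD4-like cells of day 7 libraries with intact Thpok. GP66+ and total cells came from separate libraries and sorts, and the Thpok-sufficient library from Ox40-Cre RosaYFP mice sorted for YFP. The total libraries also held a Treg-like cluster of 408 cells. Antigen specificity cannot be told apart from these differences. Of 31 genes 1 was higher in GP66+ cells and 0 lower (edgeR), against 0.477% of all 10262 genes higher and 0% lower. The groups did not overlap for 19 of the 31, against 46.3% of all genes. At an unadjusted p under 0.05, edgeR gave 1 higher and 2 lower (Elovl1 and Acat2), against 705 and 623 of all genes. DESeq2 called 1 and 0, against 128 and 48 of all genes. The gene was Insig1 (ENSMUSG00000045294, chromosome 5, 28071363 to 28078662, plus strand), with 32.5 CPM in the wild type and 30.2 in the Thpok-sufficient GP66+ library and 9.7 and 11.5 CPM in total replicates 1 and 2. The groups lay far apart relative to the spread within them, with a log2 fold change of 1.58 ± 0.18 (edgeR adjusted p = 0.0427). Without total replicate 1 the fold change was 1.45 (edgeR adjusted p = 0.546) and without total replicate 2 it was 1.69 (edgeR adjusted p = 0.238).

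Droplets with at most 50 UMIs, which hold free RNA, differed the same way, with Insig1 at 27.6 CPM (wild type) and 38.7 CPM (Thpok-sufficient) for GP66+ against 6.07 and 8.78 CPM in total replicates 1 and 2. Genes of the immediate early response moved with Insig1. Nr4a1, which is induced by antigen receptor signals, was higher in GP66+ cells by a log2 of 4.05 ± 0.21 and Junb by 2.69 ± 0.25 (edgeR adjusted p = 0.00871 and 0.0209). Fos had a log2 of 4.28 ± 0.66 and was not called (edgeR adjusted p = 0.0873). The part of either in the level of Insig1 was not tested. Of the other genes, Acat2 stood at 13.6 and 13.7 CPM in GP66+ and 22.2 and 20.2 CPM in total CD4-like cells without overlap (log2 -0.64 ± 0.17, edgeR adjusted p = 0.26). Tm7sf2, a sterol reductase, stood at 4.68 and 4.35 against 3.82 and 1.56 CPM (log2 0.63 ± 0.43, edgeR adjusted p = 0.588; without total replicate 1, log2 1.53). Fasn overlapped between the groups (15.2 and 27.3 against 22 and 33 CPM), as did Scd2 (37.5 and 45.9 against 36.4 and 46.7 CPM). The members' median was 0.06, against 0.00 for all genes tested.

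The comparison of genotypes asked which genes differ with Thpok deletion in GP66+ T cells, in 1 fit over the 5 GP66+ libraries with day as a term. The wild type library was counted as Thpok-sufficient, although its mice and its sort differed from those of the Ox40-Cre libraries. In the largest cluster of the GP66+ libraries 1332 of 1334 cells came from it. The part of mice, sort and capture in the spread of that group was not tested. The fit called 0 of 31 genes higher and 0 lower in Thpok-deleted cells (edgeR), against 0.602% and 0.287% of all 10793 genes (0.889% in either direction). Genotypes did not overlap for 11 of the 31, against 19.5% of all genes. At an unadjusted p under 0.05 edgeR gave 2 higher (Ebp, Acat2) and 7 lower (Elovl6, Insig1, Msmo1, Elovl5, Acly, Srebf2, Tm7sf2). Of all genes it gave 948 and 964. DESeq2 called 0 and 1, the latter Insig1 (DESeq2 adjusted p = 0.0034), against 254 and 212 of all genes. Without the wild type library edgeR called 2 lower, Insig1 among them (log2 -1.30, edgeR adjusted p = 0.02). The share of all genes called in that fit is not given here, so the count cannot be read as particular to the members. In simulated counts of this design, 22 of 100 genes changed by a log2 of 1 were recovered and 92 of 100 changed by a log2 of 2.

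Tm7sf2 had the largest estimate, with 1.63 CPM (day 7) and 0.934 CPM (day 30) in Thpok-deleted libraries, against 5.08 CPM (wild type, day 7), 4.35 CPM (Thpok-sufficient, day 7) and 6.73 CPM (Thpok-sufficient, day 30) (log2 -1.80 ± 0.41, edgeR adjusted p = 0.115). The low values rest on 15 and 2 UMIs, and without the Thpok-deleted library of day 7 the estimate was -2.83 (edgeR adjusted p = 0.452). Elovl6 stood at 3.37 and 4.2 CPM in the Thpok-deleted libraries of day 7 and day 30, against 11.8, 10.5 and 8.22 CPM in the wild type, the Thpok-sufficient day 7 and the Thpok-sufficient day 30 library (log2 -1.52 ± 0.30, edgeR adjusted p = 0.0916). Neither gene overlapped between genotypes. Insig1 stood at 14.9 and 29.4 CPM in the Thpok-deleted libraries of day 7 and day 30 and at 30.2, 28.4 and 102 CPM in the other 3, in the same order (log2 -1.30 ± 0.23, edgeR adjusted p = 0.0779). Its groups overlapped, since the Thpok-deleted library of day 30 lay level with the day 7 libraries. Within each day the Thpok-deleted library was lower. Nr4a1, Junb and Fos had negative estimates too (log2 -0.56, -0.92 and -1.71) and were not called (edgeR adjusted p = 0.194, 0.16 and 0.157). Their part in the level of Insig1 was not tested.

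Single libraries, compared 1 against 1 with an interval that covers counting error only and no test of the condition, gave the values by day. At day 7 the ratio of Thpok-deleted to Thpok-sufficient cells had an interval below 1 for 9 of the 33 genes and above 1 for 3, against 23.6% and 22.9% of the 10793 genes of the fit. The lowest was Elovl6 at 0.321 (0.21 to 0.479), followed by Tm7sf2 at 0.374, Scd2 at 0.483 (0.406 to 0.571), Insig1 at 0.523, Msmo1 at 0.533 and Fasn at 0.61. The 3 above 1 were Acat2 at 1.56 (1.26 to 1.94), Ebp at 1.32 and Fads1, a desaturase of polyunsaturated fatty acids, at 2.06. Against the wild type library 12 genes lay below 1 and 4 above (27.9% and 28.5% of all genes), again with Elovl6 at 0.285 (0.188 to 0.418), and the Thpok-sufficient library itself differed from the wild type one for 5 of the 33 genes, against 39.0% of all genes, such as Fasn at 1.63 and Cyp51, the sterol demethylase, at 0.743. At day 30, 7 of 31 genes with UMIs lay below 1 and 0 above (11.1% and 10.2% of all genes), led by Tm7sf2 at 0.139, Insig1 at 0.289 (0.211 to 0.393) and Msmo1 at 0.354 (0.197 to 0.622). These ratios are scaled by the TMM factors. Droplets of free RNA, scaled to library totals alone, held Insig1 at 56.2 CPM (Thpok-deleted) and 175 CPM (Thpok-sufficient) at day 30. At day 7 they held 33.8 and 38.7 CPM. The part of free RNA in the ratios of Insig1 was not tested. Summed over the 33 genes the TMM-scaled ratio was 0.901 (0.873 to 0.929) at day 7 and 0.727 (0.664 to 0.796) at day 30, and without Insig1 it was 0.914 and 0.806. The sum at day 30 depends on the scaling: in CPM of library totals alone the genes other than Insig1 stood at 452 CPM in Thpok-deleted and 483 CPM in Thpok-sufficient cells.

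The direction in Thpok-deleted cells was set beside that in CD8-like cells, since the 2 comparisons share no library. All 14 genes called between the lineages had the same sign in the genotype fit: the 3 higher in CD8-like cells had positive and the 11 higher in CD4-like cells negative estimates. Among all 3815 genes called between the lineages and tested in both, 91.2% had the same sign, so the 14 genes followed a pattern of the whole set. The count was 13 or 14 of 14 with each GP66+ library left out in turn, the exception being Scd2 without the Thpok-deleted library of day 7, against 74.6% (without that library) to 92.0% of all genes. Among genes from cells with no cell cycle UMI in the genotype fit it was 8 of 8 that could be tested, against 74.7% of all such genes, and in CD4-like cells alone it was 14 of 14, against 88.1%. Of the 8 cytotoxic CD8 markers 7 were higher in Thpok-deleted cells (edgeR adjusted p under 0.05) with a median log2 of 3.77, and the cell cycle list had a median of 0.92 with 0 of 20 genes called. The Thpok-deleted libraries held 405 CD4-like and 243 CD8-like cells at day 7 and 177 and 54 at day 30, and NK markers summed to 62 and 90.3 CPM in their T cells, against at most 9.68 CPM in the other GP66+ libraries. Their part in the members' values was not tested.

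**Figure D3:**
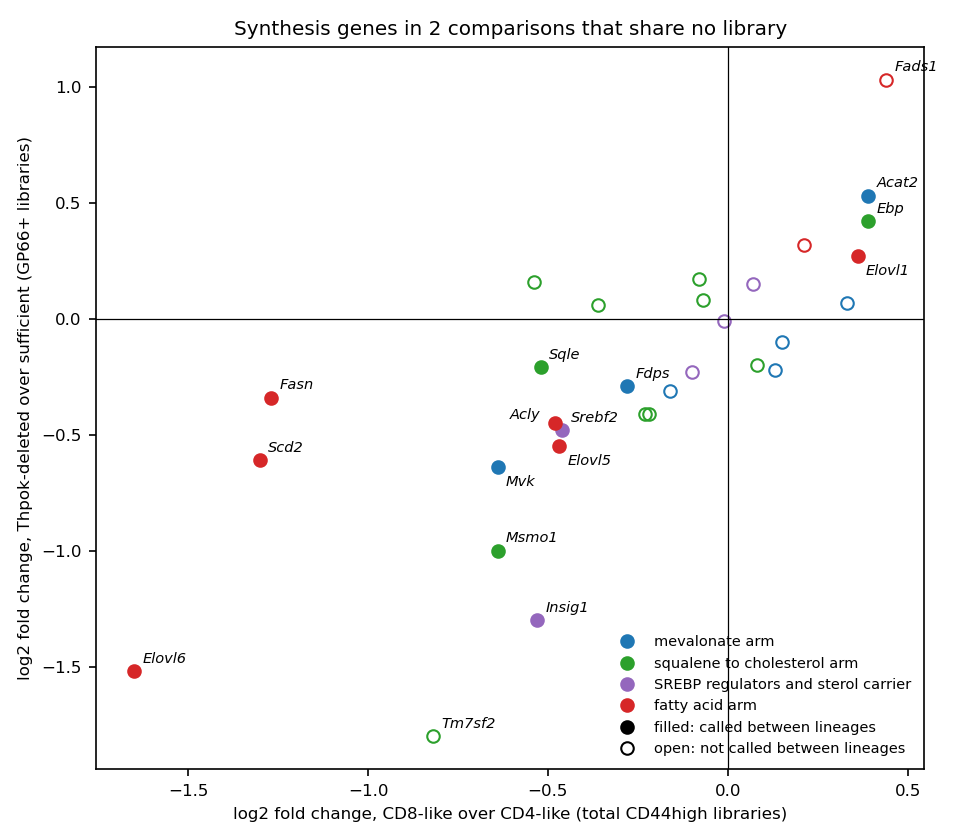
Each point is 1 of 31 genes, with the log2 fold change of CD8-like over CD4-like cells on the horizontal axis. The vertical axis gives that of Thpok-deleted over Thpok-sufficient GP66+ cells, with the wild type library counted as Thpok-sufficient. Points are coloured by arm and filled where called between the lineages. The 14 filled points lie at the lower left or upper right, from Elovl6 at -1.65 and -1.52 to Acat2 at 0.39 and 0.53.

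The comparison of day 30 with day 7, from the same fit with genotype as a term, asked how the genes differ between cells at the height of the response and memory cells. Of 31 genes 7 were lower and 1 was higher at day 30 (edgeR, adjusted p under 0.05), against 11.9% and 9.93% of all genes tested (21.8% in either direction). The days did not overlap for 16 of the 31, against 54.7% of all genes. The members' median was -0.47 and that of all genes 0.03. By arm, 3 of 7 mevalonate genes, 3 of 11 squalene genes, 0 of 5 regulators and 1 of 8 fatty acid genes were lower, with medians of -0.87, -0.61, 0.05 and -0.38.

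In the mevalonate arm Pmvk, phosphomevalonate kinase, stood at 10.5 CPM (Thpok-sufficient) and 7.47 CPM (Thpok-deleted) at day 30, against 32.2, 30.1 and 31.6 CPM in the wild type, Thpok-sufficient and Thpok-deleted libraries of day 7 (log2 -1.82 ± 0.22, edgeR adjusted p = 0.0126). Fdps, which makes farnesyl diphosphate, stood at 25.4 and 15.9 against 55.5, 54.3 and 50.8 CPM in the same order (log2 -1.36 ± 0.20, edgeR adjusted p = 0.0162). Hmgcs1, the synthase at the head of the arm, stood at 19.4 and 14.9 against 36.4, 32.1 and 28.3 CPM (log2 -0.87 ± 0.18, edgeR adjusted p = 0.0306). In all 3 genes both day 30 libraries lay below all 3 day 7 libraries.

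In the squalene arm Fdft1, which joins farnesyl units into squalene, stood at 7.47 and 6.07 against 15.1, 16.5 and 17.6 CPM (log2 -1.31 ± 0.25, edgeR adjusted p = 0.0247). Dhcr7, which makes the last reduction to cholesterol, stood at 8.97 and 9.34 against 22.9, 21.8 and 18.2 CPM (log2 -1.14 ± 0.22, edgeR adjusted p = 0.0248). Ebp stood at 41.1 and 54.6 against 82.2, 85.1 and 112 CPM (log2 -1.03 ± 0.14, edgeR adjusted p = 0.014). The day 30 values of all 3 lay below those of day 7, and for Ebp the Thpok-deleted library was the higher on both days. Among fatty acid genes Elovl1 stood at 18.7 and 27.1 against 49, 49.7 and 54.7 CPM (log2 -1.21 ± 0.18, edgeR adjusted p = 0.0164). Scd2 had values of 12.7 and 13.1 against 32.7, 42.3 and 20.4 CPM and just missed the threshold (log2 -1.11 ± 0.30, edgeR adjusted p = 0.0543).

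Insig1 alone was higher at day 30, with 102 CPM (Thpok-sufficient) and 29.4 CPM (Thpok-deleted) against 30.2, 28.4 and 14.9 CPM at day 7 (log2 1.47 ± 0.22, edgeR adjusted p = 0.0165). The groups overlapped, and the rise was seen within each genotype, as a ratio of 3.57 (2.91 to 4.37) in Thpok-sufficient and 1.98 (1.44 to 2.68) in Thpok-deleted cells. Without the Thpok-sufficient library of day 30 the log2 fold change was 0.94 (edgeR adjusted p = 0.132). Droplets of free RNA also carried the most Insig1 in that library (175 CPM, interval 137 to 220), against 27.6 to 56.2 CPM in the other GP66+ libraries. On the same scale, of library totals alone, the T cells of that library held 87.7 CPM, less than its free RNA. Such droplets held 21.2% of the UMIs of cells and droplets together there, the largest share of any library (lowest 3.86%). Nr4a1 and Junb were higher at day 30 as well, Nr4a1 by a log2 of 2.04 ± 0.17 (edgeR adjusted p = 0.00906 and 0.0122). Fos had a log2 of 1.39 ± 0.42 and was not called (edgeR adjusted p = 0.071). The part of either in the level of Insig1 was not tested.

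**Figure D4:**
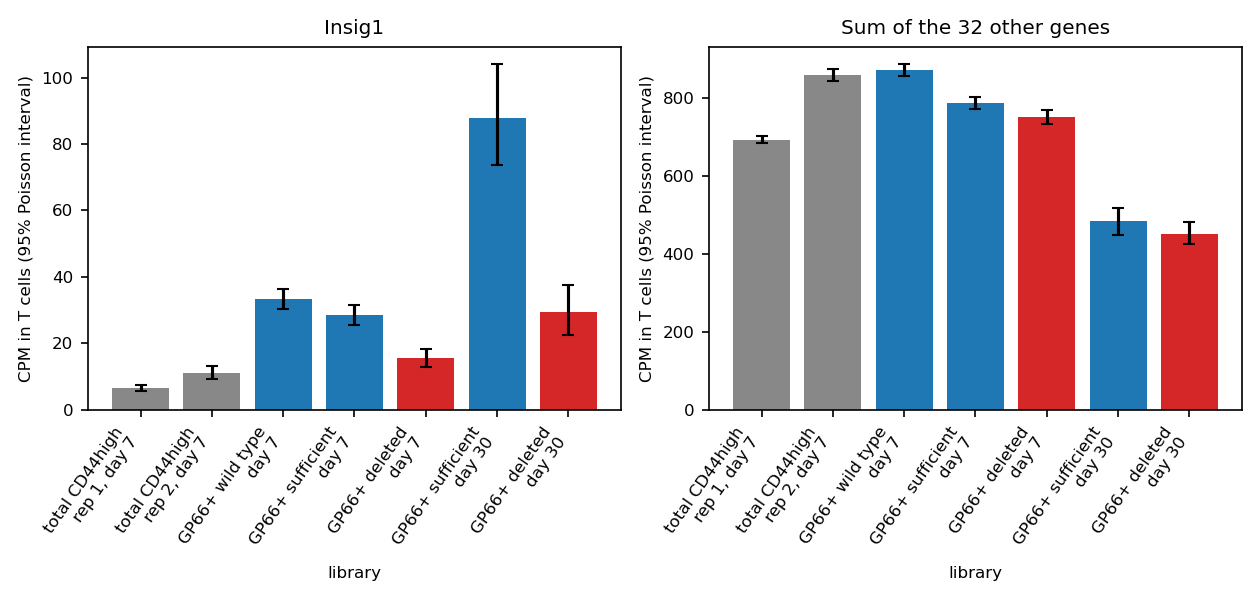
The left panel gives Insig1 and the right panel the sum of the 32 other genes, as CPM in the T cells of each library scaled to library totals alone, with 95% Poisson intervals; grey bars are total CD44high, blue GP66+ with intact Thpok and red Thpok-deleted libraries. Insig1 is highest at 87.7 CPM in the Thpok-sufficient library of day 30, where the sum of the others is 483 CPM, against 788 CPM in its day 7 counterpart.

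The calls of the day comparison rest on few libraries and on which cells are summed. Without the Thpok-deleted library of day 7 or either day 30 library edgeR called 0 of the 31 genes and 0 genes in all, and with stricter cells 0 of the 31. Over all genes 4.36% were called with stricter cells. The cell cycle list fell with the members, with 17 of 20 genes lower at day 30 and a median of -2.52. In cells with no cell cycle UMI 13 of the 31 genes could be tested. Ebp stayed lower and Insig1 higher there, against 9.31% of all genes called, and the median was -0.65. In CD4-like cells alone Pmvk, Elovl1, Dhcr7 and Ebp were lower and Insig1 higher, against 8.80% of all genes called. Erythroid markers summed to 6246 CPM in T cells of the Thpok-deleted library of day 30 and to at most 5.88 CPM in the other GP66+ libraries, and to 98.9 CPM in its CD4-like cells.

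For the companion lists the background was 11.9% of all genes lower and 9.93% higher at day 30. Among them, 5 of 17 fatty acid oxidation genes were lower and 0 higher (1 of 17 had a positive estimate, median -0.62). They included Cpt2 (log2 -2.06 ± 0.47, edgeR adjusted p = 0.0376) and Cpt1a (log2 -1.31), which carry acyl groups into mitochondria, Etfb (log2 -1.55), which passes on electrons, Acadl (log2 -0.70), a dehydrogenase of long chains, and 1 more. Synthesis and oxidation genes thus had negative medians together. Of the sterol export and trafficking genes Abcg1, a sterol exporter, and Mylip were higher (log2 1.05 ± 0.21 and 1.39 ± 0.26, edgeR adjusted p = 0.0267 and 0.0252), and Tmem97, a sterol-linked membrane protein, was lower (log2 -1.72 ± 0.30, edgeR adjusted p = 0.0214). Acss2 was higher (log2 1.05) and Acsl5 lower (log2 -0.88).

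Whether the effect of Thpok deletion differs between days was tested as an interaction, with 1 residual degree of freedom. It called 0 of 31 genes and 0 of 11313 genes in all (edgeR). At an unadjusted p under 0.05 edgeR gave 546 genes with a higher and 197 with a lower effect at day 30, among the 31 genes 0 and 2 (Insig1, Idi1), and DESeq2 called 6 and 0 of all genes. The largest estimates among the 31 were those of Fads1 (log2 -2.02 ± 1.07, edgeR adjusted p = 0.721), which rested on 3 UMIs in each day 30 library, of Idi1 (log2 -1.40 ± 0.30, edgeR adjusted p = 0.703) and of Tm7sf2 (log2 -1.33 ± 0.77, edgeR adjusted p = 0.758). Idi1, the isomerase of the isoprenoid unit, stood at 35.5 CPM in the Thpok-deleted and 30.9 in the Thpok-sufficient library of day 7, and at 12.5 and 28 CPM at day 30.

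A last comparison asked how the genes differ between cells with and without cell cycle transcripts of the same library. Each cell was thinned to 1500 UMIs, and cells with 3 or more UMIs of the 20 cell cycle genes (33 to 727 cells per library, called cycling here) were set against cells with 0 (199 to 659), with the library as block. CD4-like cells were used from the total libraries and all T cells from the GP66+ libraries. Between 234 and 934 cells per library had 1 or 2 such UMIs and lay near the cut, and 0 to 153 were too shallow. The classes are thus ranges and not cell types. In the Thpok-sufficient library of day 30 the 33 cycling cells had a median of 2374 UMIs. Its cycling values rest on few UMIs per gene, and so do range ends and directions taken from it. Of 28 genes tested, 9 were higher and 4 lower in cycling cells (edgeR, adjusted p under 0.05), against 21.0% and 22.5% of 8979 genes (43.6% in either direction). The 2 classes overlapped over libraries for all 28 genes, while 4.70% of all genes did not overlap. The members' median was 0.06, and that of all genes -0.05.

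Counts were also taken by arm, and differences between arms were not tested. In the mevalonate arm 4 of 7 genes were higher and 1 lower (median 0.45), in the squalene arm 4 of 9 were higher and 1 lower (median 0.21), and in the fatty acid arm 0 of 7 were higher and 2 lower (median -0.19). Of the 5 regulators and carriers only Stard4, a carrier of cholesterol between membranes, was called.

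Idi1 ran from 29.8 to 67 CPM in cycling cells of the 7 libraries (median 41.3) and from 4.87 to 30.9 CPM in cells without cell cycle UMIs (median 17.5), and was higher in cycling cells of 7 of 7 libraries (log2 0.91 ± 0.15, edgeR adjusted p = 1.8e-05). Acat2 ran from 18.2 to 33.5 against 9.78 to 19.5 CPM (medians 24.6 and 12.1), higher in 6 of 7 (log2 0.87 ± 0.14, edgeR adjusted p = 2.1e-05). The exception for Acat2 was the Thpok-deleted library of day 30. Sqle (log2 0.59 ± 0.14) and Stard4 (log2 0.51 ± 0.12) were higher in 7 of 7 libraries (edgeR adjusted p = 0.00121 and 0.00179), a consistency across pairs, in either direction, seen for 24.0% of all genes tested. Sqle ran from 13.7 to 28.6 against 11.4 to 24.2 CPM (medians 22.3 and 13.3) and Stard4 from 25.3 to 67 against 15.5 to 25.9 CPM (medians 32.8 and 24.9).

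Pmvk (log2 0.62 ± 0.12), Fdft1 (0.46 ± 0.16), Fdps (0.45 ± 0.11) and Ebp (0.21 ± 0.09) were each higher in 6 of 7 libraries and Cyp51 (0.39 ± 0.13) in 5 of 7. Pmvk ran from 8.37 to 41.4 against 6.49 to 28.1 CPM (medians 33.8 and 19.1) and Fdps from 22.8 to 75.4 against 17.8 to 62.1 CPM (medians 62.3 and 40.2). Fdft1 ran from 0 to 22 against 3.24 to 18.6 CPM (medians 18.9 and 12.2) and Cyp51 from 18.8 to 37.8 against 10.1 to 29.1 CPM (medians 25.1 and 23.3). The ranges of the classes overlapped for every one of these genes, since libraries differed in level, and the difference lay within libraries.

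Msmo1 was lower in cycling cells of 6 of 7 libraries, with 0 to 36.3 against 8.11 to 47 CPM (medians 20.3 and 35; log2 -0.55 ± 0.13, edgeR adjusted p = 0.00146). Elovl6 was lower in 5 of 7, with 0 to 14.3 against 1.62 to 15.1 CPM (medians 7.27 and 10.4; log2 -0.73 ± 0.23, edgeR adjusted p = 0.0143). Mvd, which makes isopentenyl diphosphate, was lower in 4 of 7, with 8.37 to 20.9 against 4.87 to 27.1 CPM (medians 16 and 19.5; log2 -0.45 ± 0.16, edgeR adjusted p = 0.022), and Acly in 5 of 7, with 25.1 to 80.5 against 50.3 to 96 CPM (medians 62.7 and 71.9; log2 -0.23 ± 0.09, edgeR adjusted p = 0.0427). These 4 calls fell to 1, that of Msmo1, with a cut at 2 or more UMIs or with DESeq2. They also fell to 1 without the wild type or the Thpok-sufficient GP66+ library of day 7. The 9 higher calls fell to 6 with DESeq2, and leaving out libraries gave 6 to 9. Of all genes DESeq2 called 1579 higher and 1654 lower. Fasn (log2 -0.08 ± 0.16), Scd2 (-0.21 ± 0.14) and Insig1 (0.04 ± 0.14) were not called.

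**Figure D5:**
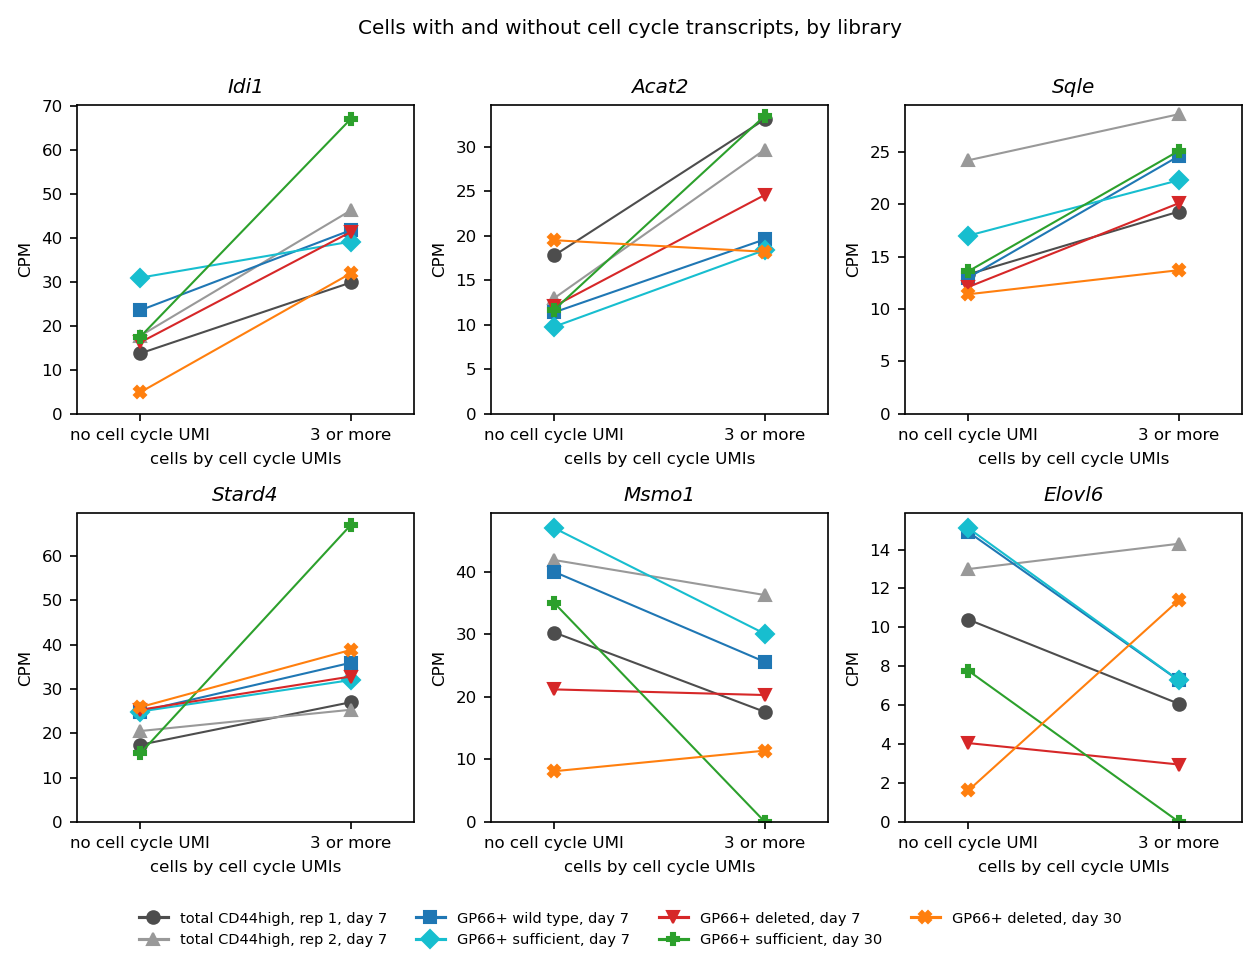
Each panel gives 1 gene, with a line per library joining its CPM in cells with no cell cycle UMI and in cells with 3 or more. Lines for Idi1, Sqle and Stard4 rise in all 7 libraries, while those for Msmo1 and Elovl6 fall in most and rise in the Thpok-deleted library of day 30.

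Beside the members, Tmem97 (log2 1.70 ± 0.16, edgeR adjusted p = 6.4e-09) and Scarb1, a lipoprotein receptor (log2 0.77), were higher in cycling cells, while Mylip and Lipa were lower (log2 -0.97 and -0.77). Pdss1 and Acsl5 were higher (log2 1.11 and 0.88), and Slc25a1 and Ggps1 lower (log2 -0.97 and -0.47). On the list of fatty acid oxidation 3 of 17 genes were higher and 4 lower, with Decr1 at log2 -0.73 and Etfb at 0.53. These counts were near the background of 21.0% of all genes higher and 22.5% lower. Markers of other states moved with the class as well: 7 of 8 Tfh and 7 of 7 central-memory markers were lower in cycling cells, as were 4 of 4 T cell markers (median log2 -0.44) and 4 of 4 erythroid markers (median log2 -6.16), and their part in the members' differences was not tested.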

How the data were processed

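The deposited files hold raw UMI counts per gene and barcode for every barcode, empty droplets included. Per the submitters' processing notes the authors used bcl2fastq 2.17 and Cell Ranger (version not given in the sources used here) with mm10. A barcode counted as a cell if it passed 10% of the UMI total at percentile 99 among the 3000 largest barcodes, had 500 or more genes and had no more than 10% mitochondrial UMIs. Cells were clustered without the 33 genes (scanpy 1.11.5: 2000 variable genes, 20 principal components, 15 neighbours, resolution 0.8). Clusters with 4 or more B or myeloid markers among their 10 leading genes were left out, a rule set after the data were seen. Scrublet marked 62 of 16114 cells (0.385%) as doublets, too few to have worked, so no doublets were removed. Sums of counts for each class in each library went into edgeR 4.0.16 (TMM, filterByExpr, quasi-likelihood, Benjamini-Hochberg adjustment over all genes tested), after a test on simulated data. The CD8-like and CD4-like sums of a library come from 1 capture, which is why the library was a block there. DESeq2 1.42.0, other size factors, no filter, stricter cells, subsets of cells and leaving out each library were alternatives. Members, lists and tests were chosen with earlier results of these data known. Members past an adjusted p of 0.05 were named with their values, up to 12 per comparison, or the 3 with the largest fold change where fewer passed, and up to 4 genes per companion list.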

Additional observations from a re-analysis of the deposited data

How the results depend on the processing

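In the lineage comparison 74 values kept their direction and side of the threshold and 22 lost the call. DESeq2 called 1 gene for CD8-like and 4 for CD4-like cells (750 and 628 of all genes). Cells with no cell cycle UMI gave 0 and 2 (14.1% of all genes in either direction). The fit with no replicate block, which ignores the pairing of classes by library, gave 0 and 2. Leaving out a library left no residual degrees of freedom there, so only values were given. In the comparison of GP66+ with total CD4-like cells, cells with no cell cycle UMI gave 0 genes, with Insig1 not tested, and leaving out libraries gave 0 to 1. For genotype DESeq2 called 1 gene lower and the fit without a filter on low counts 4, and leaving out libraries gave 0 to 2 lower. For day, stricter cells gave 0 higher and 0 lower, cells with no cell cycle UMI 1 lower and CD4-like cells 4 lower. Over all genes these settings called 4.36%, 9.31% and 8.80% in either direction. Leaving out libraries gave 0 to 1 higher and 0 to 10 lower. In the cycling comparison DESeq2 called 6 higher and 1 lower, against 1579 and 1654 of all genes. The lower count was 1 with a cut at 2 or more UMIs. Leaving out libraries gave 6 to 9 higher and 1 to 6 lower. With stricter cells the Thpok-sufficient library of day 30 had 5 cycling cells and was not used. The interaction of Fads1 reversed with stricter cells (log2 5.05, edgeR adjusted p = 0.889). The causes were not tested. Where no share of all genes stands beside a count, that count cannot be read as particular to the members. Leaving out libraries was not run for the interaction, which has 1 residual degree of freedom. Depth limits the day 30 libraries, where several genes rest on under 20 UMIs.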
